A study of Homo sapiens with 4 samples.

Results

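The interleukin-1 family was followed through PC3 cells by 10 of its genes out of 43622 in the deposited expression table. The genes were taken by name: the ligands IL1A, IL1B, IL18, IL33 and IL36G, the antagonist IL1RN, and the receptor chains IL1R1, IL1R2, IL1RAP and IL1RL1. PC3 is an established human cell line from a bone metastasis of prostate cancer. RNA-seq was performed on 4 conditions with 3 libraries each: the parental line given the solvent DMSO (Ctrl) or MLN4924 (MLN), and the PC3-shp14ARF line given DMSO (shARF) or MLN4924 (Both). MLN4924 (pevonedistat) inhibits the enzyme that activates NEDD8, and so stops the attachment of NEDD8 to cullins and other proteins. It was given at 1 µM for 3 days according to the sample labels, while the series text gives the dose in mM. The shp14ARF cells carried a short hairpin RNA (shRNA) against p14ARF, brought in stably by a retrovirus with hygromycin selection. The series text calls these cells a knockout. No control shRNA was named for the Ctrl and MLN cells, so p14ARF depletion and the effects of transduction and selection cannot be told apart. The series lists 1 sample per condition, to which the 3 libraries of that condition belong. The sources used here do not say whether these libraries came from separate cultures. The p-values then measure only the spread between these libraries, which may be technical.

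IL-1 family cytokines start and amplify inflammation at epithelial surfaces and in tumours. IL-1α and IL-1β bind the same receptor, IL1R1, while IL-33 and IL-36γ bind others, and each of these receptors recruits the shared chain IL1RAP. The assembled receptor signals through MYD88 and IRAK kinases to NF-κB and MAP kinases. IL1RN blocks IL1R1 without starting a signal, IL1R2 is a decoy that binds IL-1 but lacks the signalling domain, and IL-1β and IL-18 need proteolytic cleavage before they act, so mRNA levels do not give the amount of active cytokine.

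Expression was measured as TPM (transcript abundance), a level scaled for transcript length and to the same total in every library. Read depth cannot be recovered from TPM, and values near 0 are the least certain. CDKN2A, the gene of p14ARF and p16INK4A, was between 177 and 190 TPM in Ctrl and between 58.2 and 60.9 TPM in shARF, a fall of 1.63 on the log2 scale (SE 0.0353, limma adjusted p = 2.24e-05). It was between 100.4 and 133 TPM in MLN and between 41.2 and 54.0 TPM in Both. The shRNA cells therefore still carried CDKN2A transcripts, and gene-level values do not separate the p14ARF transcript from that of p16INK4A. KLK3, a prostate gene that PC3 is known to lack, was at 0 in each library, while the epithelial genes EPCAM (18.3 to 79.7 TPM) and KRT18 (125 to 478 TPM) were detected throughout. Summed levels of the 9 genes in the list for PC3 cells ran from 1887 to 2072 TPM in Ctrl and 1821 to 2004 TPM in shARF, and from 848 to 981 TPM in MLN and 757 to 799.7 TPM in Both. This list also holds VIM, a mesenchymal gene that PC3 cells express, and CD44. In shARF vs Ctrl the epithelial genes EPCAM (log2 0.66, adjusted p = 0.0016) and KRT18 (log2 0.89, adjusted p = 0.00129) rose, while VIM (log2 −0.46, adjusted p = 0.00187) and CD44 (log2 −0.88, adjusted p = 0.000237) fell. The 7 myeloid markers summed to 212 to 267 TPM in Ctrl, 115 to 145 TPM in shARF, 444 to 613 TPM in MLN and 309.5 to 352 TPM in Both. The leukocyte gene PTPRC (at most 0.322 TPM), ITGAM (at most 0.107) and CSF1R (at most 0.234) were near 0, and CD68, a lysosomal gene that many cell types express, ranged from 73.7 to 607 TPM. With the drug, PTPRC rose within these low levels (log2 1.62, adjusted p = 0.00449 in MLN vs Ctrl, and log2 1.73, adjusted p = 0.00182 in Both vs shARF), and so did CD68 (log2 1.55, adjusted p = 0.00064, and log2 1.96, adjusted p = 2.54e-05). LYZ, the lysozyme gene, went against the sum under the drug, at 35.9, 44.6 and 50.2 TPM in Ctrl, 41.7, 49.6 and 40.8 TPM in shARF, 5.69, 6.99 and 5.30 TPM in MLN, and 6.20, 7.66 and 5.05 TPM in Both (log2 −2.84 in MLN vs Ctrl, adjusted p = 3.19e-05). The 5 fibroblast genes summed to 13.8 to 16.4 TPM, 58.7 to 69.7 TPM, 22.9 to 24.9 TPM and 15.8 to 17.1 TPM in the same order. Among them, COL1A2 and COL1A1 went opposite ways. COL1A2 went from 6.73 ± 0.441 TPM in Ctrl to 54.5 ± 4.91 TPM in shARF and 1.47 ± 0.0566 TPM in MLN (mean ± SD, n = 3). COL1A1 went from 7.27 ± 0.856 TPM to 4.04 ± 0.528 TPM and 18.2 ± 1.37 TPM. COL3A1 rose in both comparisons, from 0.525 ± 0.164 TPM to 5.28 ± 0.664 TPM and 3.38 ± 0.43 TPM (limma adjusted p = 0.000514 and 0.000213). The part of these shifts in the results below was not tested.

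MLN4924 split the family into genes that rose and genes that fell. In MLN vs Ctrl, IL1A, IL18, IL1R1, IL1R2, IL1RAP and IL1RL1 rose and IL1B, IL1RN, IL33 and IL36G fell, so each of the 10 members passed the test. Over all 19932 genes tested, 32.2% rose and 29.4% fell. The median log2 fold change was 0.72 over the members and 0.05 over all genes. The 4 receptor chains among the members stood on one side, while the ligands were found on both. Receptors of the family outside the members did not pass: IL18R1, SIGIRR, IL1RAPL1 and IL1RAPL2 (limma adjusted p = 0.756, 0.701, 0.132 and 0.102). Fold changes were computed on log2(TPM + 0.1), which understates the change of low genes, and tested with limma. The p was adjusted over all genes tested by Benjamini-Hochberg with a threshold of 0.05.

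Most of the family was lower in the PC3-shp14ARF cells. In shARF vs Ctrl, 8 members fell, IL18 alone rose, and IL1R2 did not pass the test, where 20.4% of all genes fell and 21.0% rose. The members' median log2 fold change was −1.87, against 0.00 over all genes. In drug-treated cells, Both vs MLN, 7 members were lower, none was higher, and IL1RN, IL1R2 and IL1RAP did not pass, against 20.6% of all genes lower and 11.8% higher (median −0.99 for the members and −0.08 for all genes).

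**Figure D1:**
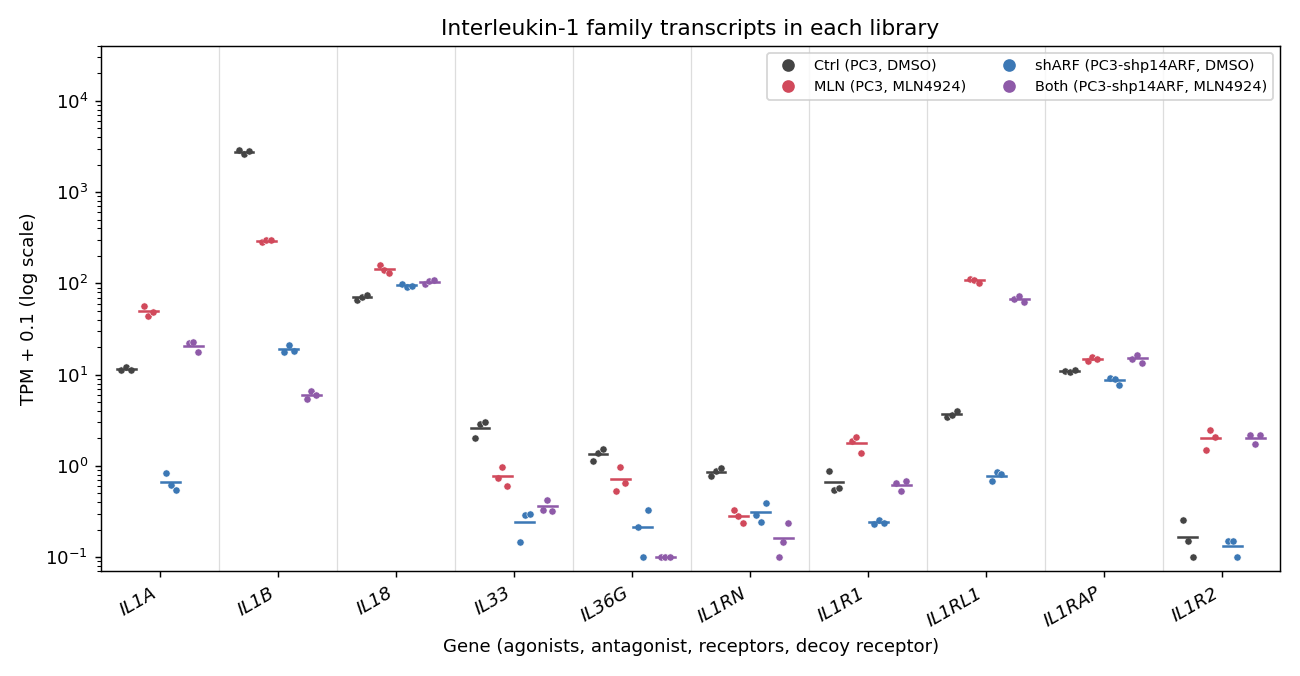
Level of each of the 10 members as TPM + 0.1 on a log axis, 1 point per library and a line at the mean of the 3 libraries, with the condition by colour (Ctrl, MLN, shARF and Both). The IL1B points step down from Ctrl to MLN, shARF and Both, while IL1RL1 runs from 63.0 to 112 TPM in the drug conditions and from 0.575 to 3.89 TPM in the DMSO conditions.

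IL1B, which encodes the secreted agonist IL-1β, was the most abundant member in Ctrl and was the member with the largest fall in shARF vs Ctrl. It stood at 2878, 2603 and 2822 TPM in Ctrl, at 282, 296 and 296 TPM in MLN, at 17.5, 21.3 and 17.8 TPM in shARF, and at 5.37, 6.57 and 5.85 TPM in Both. The 4 conditions did not overlap, and Ctrl was highest and Both lowest. MLN4924 lowered it 9.49-fold in PC3 cells (log2 −3.25, SE 0.0685, adjusted p = 2.05e-06). In shARF it was 146-fold lower than in Ctrl (log2 −7.19, SE 0.0891, adjusted p = 8.46e-06). Both was 48.5-fold below MLN (log2 −5.60, SE 0.0805, adjusted p = 1.33e-05) and 3.15-fold below shARF (log2 −1.65, SE 0.111, adjusted p = 6.19e-05). MLN4924 thus lowered IL1B in both lines, and by less where the level was already low.

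IL1A, the agonist IL-1α that also acts from the cell membrane and the nucleus, went the other way under the drug although it shares its receptor with IL-1β. Its level was 11.1, 11.9 and 11.01 TPM in Ctrl, 56.8, 44.4 and 48.0 TPM in MLN, 0.741, 0.512 and 0.448 TPM in shARF, and 21.9, 22.5 and 17.5 TPM in Both. The order was MLN, Both, Ctrl and shARF, with no overlap between any of the conditions. MLN4924 raised it 4.33-fold in PC3 cells (log2 2.12, SE 0.0985, adjusted p = 1.81e-05) and 31.4-fold in PC3-shp14ARF cells (log2 4.97, SE 0.197, adjusted p = 9.99e-06). It was lower in PC3-shp14ARF than in PC3 cells, with a log2 fold change of −4.12 with DMSO (SE 0.183, adjusted p = 0.000132) and −1.27 with the drug (SE 0.133, adjusted p = 0.00184). At a pseudocount of 1 TPM, which is above the shARF levels, IL1A was at 3.78 in Both vs shARF and −2.98 in shARF vs Ctrl on the log2 scale, both still called.

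The share of IL1A in the sum of both agonist transcripts was computed after these values were seen, and is given as a description without a test. IL1A made up 0.385%, 0.455% and 0.389% of the sum in Ctrl and 16.8%, 13.04% and 13.9% in MLN. It made up 4.05%, 2.35% and 2.45% in shARF and 80.3%, 77.4% and 74.9% in Both. IL1B was thus the main agonist transcript in 3 of the conditions and IL1A in Both. The sum itself ran from 2615 to 2889 TPM in Ctrl and 339 to 344 TPM in MLN, and from 18.3 to 21.8 TPM in shARF and 23.3 to 29.1 TPM in Both.

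**Figure D2:**
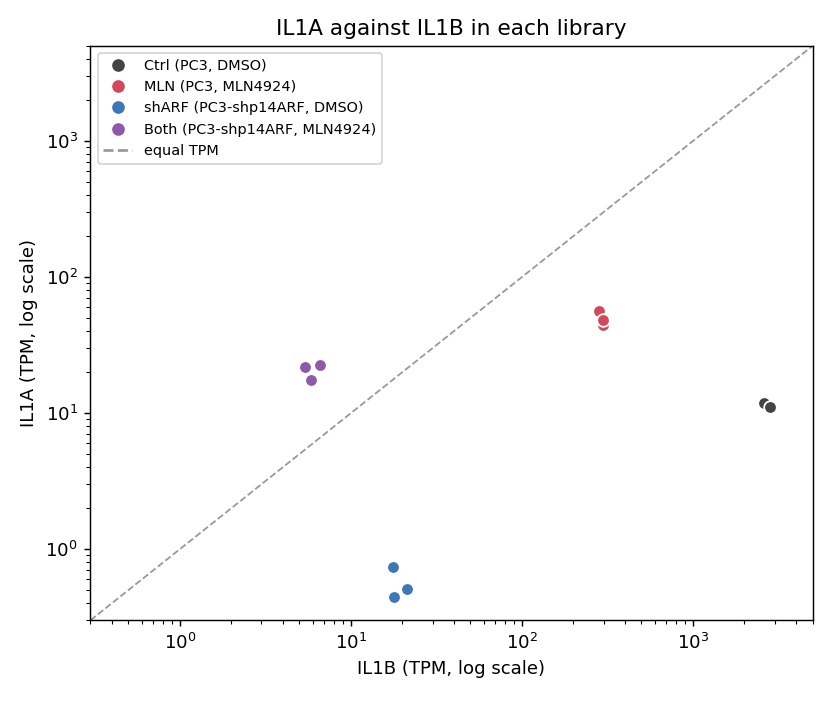
IL1A against IL1B in TPM, both axes log scaled, 1 point per library, the condition by colour and a dashed line at equal TPM. Only the 3 Both libraries lie above the line, with IL1A between 17.5 and 22.5 TPM, while the 3 shARF libraries have the lowest IL1A and the 3 Ctrl libraries the highest IL1B.

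The promoters of this pair are shown because the genes are neighbours on chromosome 2 and moved in opposite directions under the drug. IL1A lies at chr2:112773925-112784493 and IL1B at chr2:112829751-112836816 of GRCh38 (GENCODE release 44), both on the minus strand with 7 exons in the canonical transcript. The bases upstream of each start are from RefSeq (GRCh38.p14), read 5′ to 3′ on the gene's strand, at chr2:112784494-112784743 for IL1A and chr2:112836817-112837029 for IL1B. Annotated exon bases were left out. RefSeq gives a second start for IL1A, further downstream, whose window holds 2 matches to TGANTCA (105 to 99 and 55 to 49 bases before it) and no TATAAA. The capitals mark a match to TATAAA and to the AP-1 motif TGANTCA in IL1A and to the C/EBP motif TTGCNNAA in IL1B.
IL1A: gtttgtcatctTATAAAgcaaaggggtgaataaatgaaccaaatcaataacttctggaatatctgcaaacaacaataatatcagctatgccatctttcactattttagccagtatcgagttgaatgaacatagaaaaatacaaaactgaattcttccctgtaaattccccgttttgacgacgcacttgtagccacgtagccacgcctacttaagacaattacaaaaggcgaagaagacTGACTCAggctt
IL1B: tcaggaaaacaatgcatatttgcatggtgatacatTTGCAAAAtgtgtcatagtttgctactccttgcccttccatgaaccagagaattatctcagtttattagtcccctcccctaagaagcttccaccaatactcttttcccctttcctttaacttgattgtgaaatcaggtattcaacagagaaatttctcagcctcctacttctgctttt
Both strands were searched in the 250 bases before each RefSeq start, for these motifs and for an NF-κB motif. TGANTCA was found in 6.57% of 35116 promoters, TTGCNNAA in 9.05%, TATAAA in 10.7% and the NF-κB motif in 9.96%. A match is a description of the letters and not a binding site. RefSeq promoter entries were matched by symbol for 9 of the 10 members (18 entries).

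IL18, an agonist that epithelial cells express in the resting state, was the only one of these ligands that stayed at 65.2 TPM or above in every library. It was at 65.2, 70.7 and 74.7 TPM in Ctrl, 159.5, 140.4 and 129 TPM in MLN, 99.2, 92.4 and 93.9 TPM in shARF, and 98.1, 106 and 109 TPM in Both. The MLN libraries were highest and the Ctrl libraries lowest, and shARF and Both overlapped. It rose 2.03-fold in MLN vs Ctrl (log2 1.02, SE 0.0937, adjusted p = 0.00021) and 1.36-fold in shARF vs Ctrl (log2 0.44, SE 0.0595, adjusted p = 0.00356). The difference of 0.13 between Both and shARF did not pass the test (SE 0.0542, adjusted p = 0.0783). Over its alternatives the adjusted p ran from 0.0208 to 0.198, with a call after median-of-ratios scaling (adjusted p = 0.0208) and without Both library 2 (adjusted p = 0.0303). The log2 difference of Both from MLN was −0.45 (adjusted p = 0.0148), a call lost without MLN library 2 (adjusted p = 0.0547) or Both library 2 (adjusted p = 0.0584), in a range over the alternatives of 0.000882 to 0.0584. IL18 lies on chromosome 11 (chr11:112143253-112164096, minus strand, 6 exons), away from the cluster of the IL-1 ligands. An opposite-strand gene of the annotation overlaps it and is not in the table. The use of strand in the counting is not given in the sources used here.

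IL33, an alarmin held in the nucleus, and IL36G, which is known from keratinocytes, were low in PC3 cells. IL33 (chr9:6215786-6257983) was at 1.92, 2.76 and 2.90 TPM in Ctrl, 0.635, 0.878 and 0.510 TPM in MLN, 0.0484, 0.191 and 0.195 TPM in shARF, and 0.230, 0.327 and 0.225 TPM in Both. The Ctrl libraries were the highest and the shARF libraries the lowest. Its log2 fold change was −1.77 in MLN vs Ctrl (SE 0.254, adjusted p = 0.00138) and −3.47 in shARF vs Ctrl (SE 0.345, adjusted p = 0.00134). Both vs MLN was at −1.09 (adjusted p = 0.0237). That call was lost without MLN library 1, MLN library 2, Both library 2 or Both library 4, with adjusted p between 0.0537 and 0.072 there and between 0.0187 and 0.072 over the alternatives. Both and shARF differed by 0.61 (adjusted p = 0.167), which did not pass. At a pseudocount of 1 TPM the 3 calls of IL33 held at smaller values of −1.07, −1.61 and −0.40.

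IL36G (chr2:112973203-112985658) was at 1.02, 1.30 and 1.43 TPM in Ctrl, 0.428, 0.872 and 0.546 TPM in MLN, and 0.114, 0 and 0.230 TPM in shARF, and it was listed at 0 in the 3 Both libraries. Ctrl was highest and MLN next, while shARF library 3 was at 0 like the Both libraries. The change of −0.95 (log2) in MLN vs Ctrl (SE 0.28, adjusted p = 0.026) was lost in 7 of its 13 alternatives, with adjusted p from 0.0108 to 0.143. The libraries whose omission lost it were Ctrl 2, Ctrl 3, MLN 1 and MLN 5, with adjusted p of 0.0747, 0.0841, 0.069 and 0.077. The log2 fold change of −2.80 in shARF vs Ctrl passed the test (SE 0.469, adjusted p = 0.0073), as did the difference between Both and MLN (adjusted p = 0.00178), for which no fold is given against a group listed at 0. At a pseudocount of 1 TPM the values in MLN vs Ctrl and shARF vs Ctrl were −0.48 and −1.01, and the second was −4.22 at 0.01 TPM. Both vs shARF did not pass (adjusted p = 0.124), and it did without shARF library 3 (adjusted p = 0.00881, range over the alternatives 0.00881 to 0.269).

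The antagonist IL1RN was at most 0.840 TPM in any library. It was at 0.672, 0.781 and 0.840 TPM in Ctrl, 0.227, 0.185 and 0.139 TPM in MLN, 0.193, 0.143 and 0.293 TPM in shARF, and 0, 0.0466 and 0.135 TPM in Both. Ctrl stood above the other conditions, which were close to each other and to the lower limit of the table. Its log2 fold change was −1.62 in MLN vs Ctrl (SE 0.219, adjusted p = 0.00107) and −1.504 in shARF vs Ctrl (SE 0.216, adjusted p = 0.00436). These values were smaller at a pseudocount of 1 TPM, at −0.58 and −0.55. The differences of −0.90 in Both vs MLN (adjusted p = 0.119) and −1.01 in Both vs shARF (adjusted p = 0.0641) did not pass. Without Both library 4 they did, at 0.043 and 0.0206, within ranges over the alternatives of 0.043 to 0.237 and 0.0206 to 0.163. The secreted and the intracellular forms of the antagonist come from the same gene and are not separated in these values.

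IL1RN counters both IL-1 agonists, and its ratio to IL1B alone was compared within each library. IL1A was left out of this ratio, although it made up 74.9% to 80.3% of the sum of both agonist transcripts in Both. The differences of Both therefore do not describe IL1RN against both agonists. The log2 ratio of IL1RN to IL1B, each with 0.1 TPM added, was higher by 1.63 in MLN than in Ctrl, by 5.69 in shARF than in Ctrl, and by 4.70 in Both than in MLN. The difference between Both and shARF was 0.65. In a two-sided exact permutation test over 3 against 3 libraries, p was 0.1 for the first 3 comparisons and 0.2 for the last, and 0.1 is the smallest p that the 20 regroupings allow. IL1RN was at most 0.2925 TPM in MLN, shARF and Both, so each difference rests on IL1RN levels not far from the added 0.1 TPM. It was not called higher in any of these comparisons, while IL1B was lower in each. The last difference, with IL1RN closest to 0.1 TPM, turned to −0.61 at a pseudocount of 0.01 TPM. At 1 TPM it was 1.33, where the first, MLN vs Ctrl, was 2.67.

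IL1RL1, the ST2 chain that binds IL-33, had the largest change of the 10 members under MLN4924 in both lines on this scale, while at a pseudocount of 0.01 TPM the log2 fold change of IL1R2 in MLN vs Ctrl (5.35) was above that of IL1RL1 (4.91). It was at 3.32, 3.49 and 3.89 TPM in Ctrl, 112, 109 and 101 TPM in MLN, 0.575, 0.757 and 0.718 TPM in shARF, and 67.8, 72.1 and 63.0 TPM in Both. The 4 conditions did not overlap, and both drug conditions lay far above both DMSO conditions. The increase was 29.4-fold in PC3 cells (log2 4.88, SE 0.0773, adjusted p = 1.24e-06) and 86.7-fold in PC3-shp14ARF cells (log2 6.44, SE 0.113, adjusted p = 1.17e-06). In PC3-shp14ARF against PC3 cells it was lower, with a log2 fold change of −2.23 with DMSO (SE 0.144, adjusted p = 0.000376) and −0.67 with the drug (SE 0.0697, adjusted p = 0.00178). At a pseudocount of 1 TPM the log2 fold change was 5.35 in Both vs shARF and −1.44 in shARF vs Ctrl. The ligand IL33 was at most 2.90 TPM in any library, while the receptor reached 112 TPM.

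IL1RL1 lies at chr2:102311502-102352037 on the plus strand with 11 exons, within a cluster of 6 receptor genes that spans 461 kb. IL18R1 overlaps it on the same strand and was between 0.255 and 2.02 TPM. The gene is known to make a membrane receptor and a soluble decoy from alternative transcripts, which gene-level values do not separate. RefSeq gives 2 starts for it, and the bases upstream of the outer start (chr2:102311313-102311501) and of the inner start (chr2:102337007-102337147, both plus strand) are shown for this drug-responsive member. The capitals mark a match to TGANTCA, the AP-1 motif that is also in the IL1A window and was not found at the outer start. A window of IL1RN, which fell in MLN vs Ctrl, holds a match too (223 to 217 bases before that start). Whether the motif goes with the drug response was not tested. The window of the outer start holds a TATAAA from 29 to 24 bases before it, in annotated exon bases that were left out.
IL1RL1 outer start: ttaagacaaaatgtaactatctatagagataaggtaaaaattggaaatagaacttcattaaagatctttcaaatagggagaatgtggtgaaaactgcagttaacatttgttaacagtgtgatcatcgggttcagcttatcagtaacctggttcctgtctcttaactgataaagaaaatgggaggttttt
IL1RL1 inner start: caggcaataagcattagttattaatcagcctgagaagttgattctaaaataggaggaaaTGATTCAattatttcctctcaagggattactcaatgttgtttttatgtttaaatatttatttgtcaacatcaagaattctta

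IL1R1, the signalling receptor for IL-1α and IL-1β, was low and moved with IL1RL1 in direction. It was at 0.772, 0.444 and 0.472 TPM in Ctrl, 1.79, 1.995 and 1.30 TPM in MLN, 0.133, 0.154 and 0.134 TPM in shARF, and 0.550, 0.429 and 0.577 TPM in Both. MLN was highest and shARF lowest, and Ctrl and Both overlapped. MLN4924 raised it by 1.45 in PC3 cells (SE 0.268, adjusted p = 0.00407) and by 1.36 in PC3-shp14ARF cells (SE 0.195, adjusted p = 0.00145). The log2 fold change was −1.43 in shARF vs Ctrl (SE 0.215, adjusted p = 0.00509) and −1.52 in Both vs MLN (SE 0.22, adjusted p = 0.00476). At a pseudocount of 1 TPM these 4 values shrank to 0.78, 0.41, −0.45 and −0.82, each still called. IL1R1 is at chr2:102064544-102179874, and an antisense gene that overlaps it is not in the table.

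IL1R2, the decoy receptor, was close to 0 without the drug and was detected with it in either line. It was at 0.153, 0.0487 and 0 TPM in Ctrl, 1.39, 2.35 and 1.96 TPM in MLN, 0.0512, 0.0506 and 0 TPM in shARF, and 2.10, 1.63 and 2.09 TPM in Both. The DMSO conditions overlapped each other, and so did the drug conditions. MLN4924 raised it by 3.66 in PC3 cells (SE 0.399, adjusted p = 0.000431) and by 3.95 in PC3-shp14ARF cells (SE 0.248, adjusted p = 4.85e-05). These sizes depend on the pseudocount, since a DMSO library of each line was listed at 0, and at 1 TPM they were 1.43 and 1.504. The differences of −0.24 in shARF vs Ctrl (adjusted p = 0.666) and 0.05 in Both vs MLN (adjusted p = 0.895) did not pass. IL1R2 is at chr2:101991960-102028544, and RefSeq gives 2 starts for it. The bases before the outer start (chr2:101991710-101991959, plus strand) are shown as those of the receptor gene that was near 0 without the drug. The window of the inner start (chr2:101998711-101998960) held no match to the motifs searched. The capitals mark a match to the NF-κB motif and to TATAAA.
IL1R2: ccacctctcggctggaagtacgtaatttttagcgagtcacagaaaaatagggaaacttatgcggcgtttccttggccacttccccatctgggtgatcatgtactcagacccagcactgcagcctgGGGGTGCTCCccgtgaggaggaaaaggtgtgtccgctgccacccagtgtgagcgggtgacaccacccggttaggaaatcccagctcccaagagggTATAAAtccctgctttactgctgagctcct

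IL1RAP, the chain shared by the receptors for IL-1, IL-33 and IL-36, varied least. It was at 10.9, 10.7 and 11.2 TPM in Ctrl, 14.0, 15.4 and 14.8 TPM in MLN, 9.17, 8.85 and 7.61 TPM in shARF, and 14.9, 16.5 and 13.5 TPM in Both. The drug conditions overlapped each other and lay above the DMSO conditions. It rose by 0.43 in MLN vs Ctrl (SE 0.0604, adjusted p = 0.00129) and by 0.80 in Both vs shARF (SE 0.107, adjusted p = 0.00105). The log2 fold change of −0.36 in shARF vs Ctrl (SE 0.0816, adjusted p = 0.0202) did not pass when any of the Ctrl libraries was left out (adjusted p = 0.0547, 0.052 and 0.0702 without Ctrl 1, 2 and 3, range over the alternatives 0.00692 to 0.117). Both vs MLN differed by 0.01 (adjusted p = 0.921). IL1RAP lies on chromosome 3 (chr3:190514051-190659750). The ratio of IL1RL1 to IL1RAP went from 0.304 to 0.346 in Ctrl to 6.81 to 7.995 in MLN, and from 0.0628 to 0.0944 in shARF to 4.36 to 4.67 in Both.

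**Figure D3:**
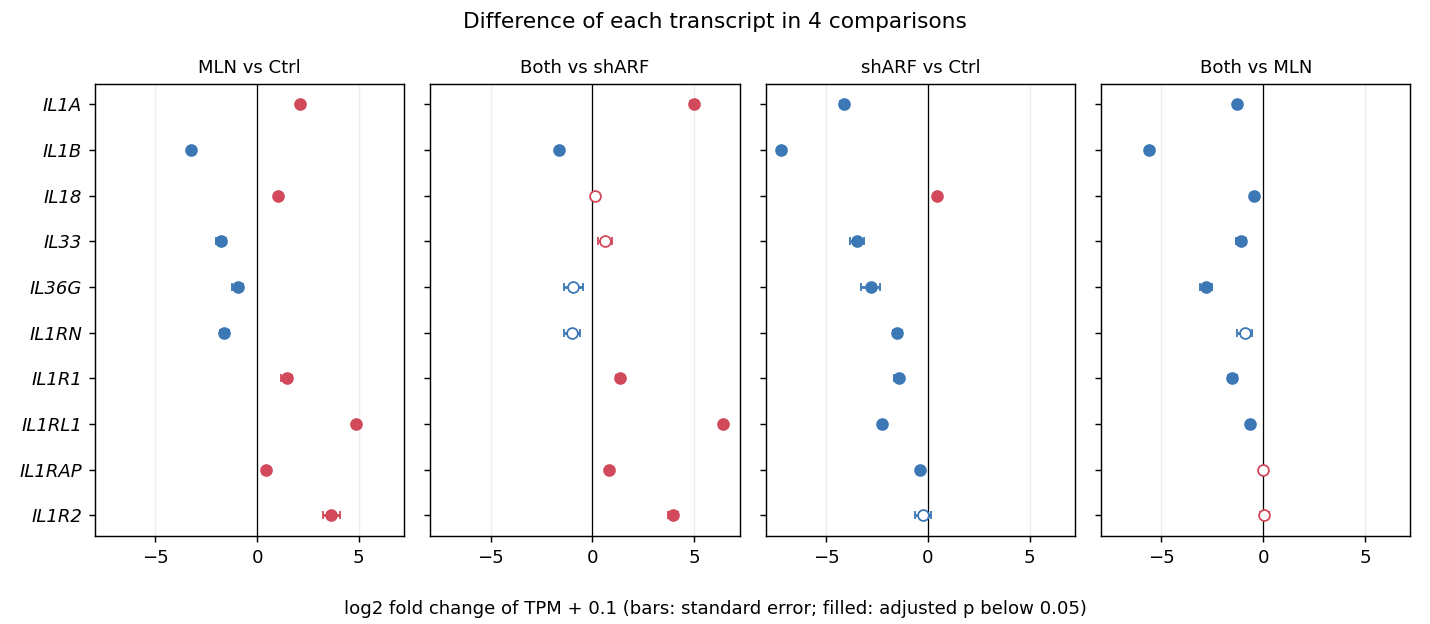
Log2 fold change of each member on the log2(TPM + 0.1) scale in the 4 pairwise comparisons, with the standard error as bars and filled points for calls at an adjusted p below 0.05. IL1RL1 and IL1A lie on the positive side in both drug comparisons and on the negative side in both comparisons of the shRNA line with PC3 cells, and IL1B is negative in all 4. IL36G was listed at 0 in Both, so its points there rest on the pseudocount.

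The drug response of the PC3-shp14ARF cells, Both vs shARF, was compared with that of the PC3 cells. In Both vs shARF, 5 members were higher (IL1A, IL1R1, IL1R2, IL1RAP and IL1RL1) and 1 was lower (IL1B), while 4 did not pass. Of all genes, 28.3% were higher and 32.8% lower, and the median log2 fold change was 0.71 for the members and −0.04 for all genes. An interaction term fitted to the 12 libraries tested the difference of the 2 responses, with 5 members positive and 1 negative, against 11.2% and 17.1% of all genes. IL1A (2.86, SE 0.218, adjusted p = 3.09e-06) and IL1RL1 (1.56, SE 0.141, adjusted p = 1.08e-05) rose by more on the log2 scale in the PC3-shp14ARF cells. These values depend on shARF levels below 1 TPM, and at a pseudocount of 1 TPM they were 1.75 and 0.78, still past the threshold. IL1B (1.59, SE 0.121, adjusted p = 3.03e-06) fell by less. IL33 was also positive (2.38, SE 0.458, adjusted p = 0.0023), with a fall in PC3 cells and at most 0.327 TPM in both conditions of the other line, and was 1.21 at a pseudocount of 1 TPM. IL18 was negative (−0.89, SE 0.113, adjusted p = 0.000145), with a rise that passed the test in PC3 cells and did not in the shRNA line. The positive value of IL1RAP (0.37, SE 0.128, adjusted p = 0.0474) was lost in 13 of 19 alternatives, with adjusted p from 0.0121 to 0.156. The interactions of IL1RN, IL36G, IL1R1 and IL1R2 did not pass.

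Several members share a cluster of 9 ligand genes that spans 360 kb of chromosome 2, in the order IL1A, IL1B, IL37, IL36G, IL36A, IL36B, IL36RN, IL1F10 and IL1RN. IL37, whose product is known to dampen inflammation, was the most abundant of them after IL1B in Ctrl. It was at 368 ± 18.6 TPM in Ctrl, 13.7 ± 1.49 TPM in MLN, 4.12 ± 0.0438 TPM in shARF and 0.596 ± 0.451 TPM in Both (mean ± SD, n = 3 libraries). Its order over the conditions was that of IL1B, its neighbour. The log2 fold change of IL37 was −4.74 in MLN vs Ctrl (adjusted p = 1.7e-06), −6.44 in shARF vs Ctrl (adjusted p = 2.46e-06), −4.54 in Both vs MLN (adjusted p = 0.00226) and −2.84 in Both vs shARF (adjusted p = 0.00403). IL36A, an IL-36 agonist in the same cluster, rose with the drug, from 0.688 ± 0.175 TPM in Ctrl to 5.23 ± 1.36 in MLN (log2 2.75, adjusted p = 0.000212) and from 0.118 ± 0.102 in shARF to 1.35 ± 0.471 in Both (log2 2.83, adjusted p = 0.00312). Neighbouring genes of the cluster therefore moved in opposite directions.

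**Figure D4:**
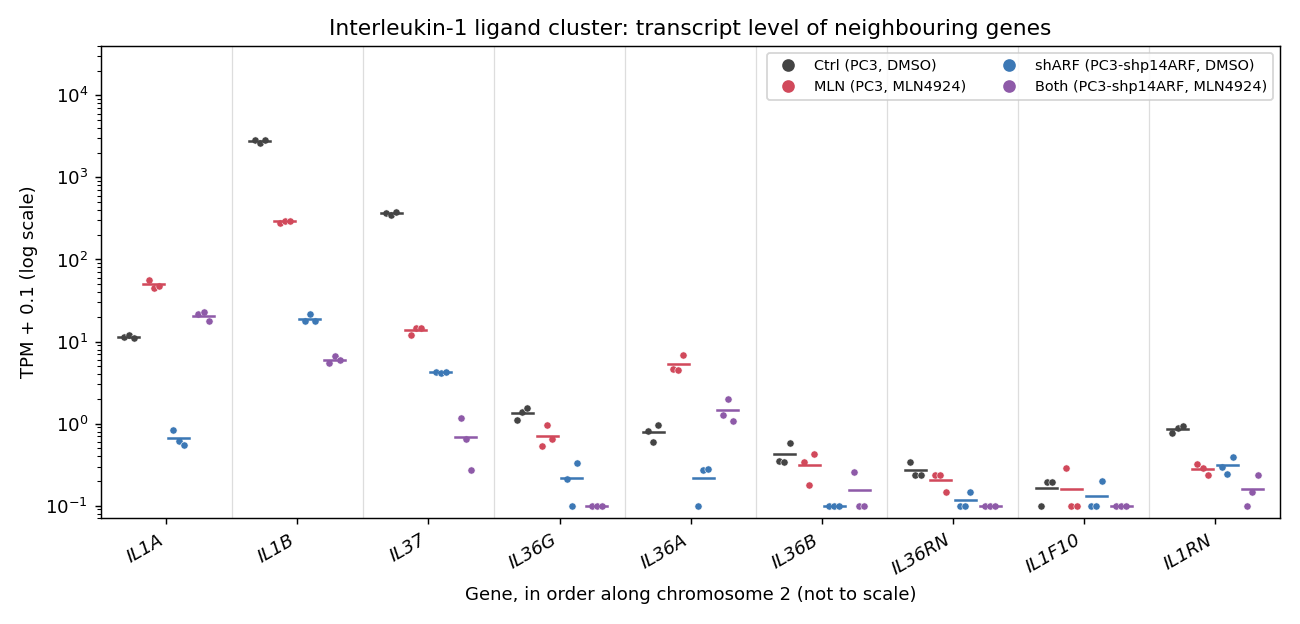
Level of the 9 genes of the ligand cluster as TPM + 0.1 on a log axis, in their order along chromosome 2 (not to scale), 1 point per library and a line at the mean of each condition. IL1B and IL37 are highest in Ctrl and lowest in Both, while IL1A and IL36A are highest in MLN and lowest in shARF.

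Of 12 further receptors, ligands and modulators of the family, 8 were tested. In MLN vs Ctrl 2 rose (IL36A and IL18BP, neither a receptor) and 1 fell (IL37). In shARF vs Ctrl 6 fell and 0 rose, in Both vs MLN 5 were lower and 0 higher, and in Both vs shARF 3 were higher and 2 lower. Of all genes, 32.2% rose and 29.4% fell, 20.4% fell and 21.0% rose, 20.6% were lower and 11.8% higher, and 28.3% were higher and 32.8% lower in these comparisons. The median log2 fold changes of the list were −0.17, −1.79, −0.93 and 0.58, against 0.05, 0.00, −0.08 and −0.04 over all genes. IL18BP, a secreted protein that binds IL-18, was at 2.05 ± 0.0736 TPM in Ctrl and 9.20 ± 0.588 in MLN (log2 2.11, adjusted p = 1.48e-05). It was at 1.91 ± 0.308 TPM in shARF and 5.22 ± 0.51 in Both (log2 1.41, adjusted p = 0.000434). It thus rose with the drug in either line, and NUMA1 overlaps it on the opposite strand with 18.0 to 28.9 TPM. SIGIRR, an inhibitory receptor, was lower in Both, by a log2 fold change of −0.82 against MLN (adjusted p = 0.00542) and −0.77 against shARF (adjusted p = 0.00341).

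The genes that carry the IL-1 signal inside the cell were called in both directions. The shares of all genes called higher and lower were 32.2% and 29.4% in MLN vs Ctrl, 28.3% and 32.8% in Both vs shARF, 21.0% and 20.4% in shARF vs Ctrl and 11.8% and 20.6% in Both vs MLN. Of 21 tested, 8 rose and 8 fell in MLN vs Ctrl and likewise in Both vs shARF, 5 rose and 6 fell in shARF vs Ctrl, and 2 were higher and 6 lower in Both vs MLN. IRAK2, a kinase of the receptor complex, fell from 86.0, 70.4 and 86.4 TPM in Ctrl to 13.6, 15.7 and 20.0 TPM in MLN (log2 −2.30, adjusted p = 6.65e-05) and to 14.6, 14.5 and 13.7 TPM in shARF (log2 −2.49, adjusted p = 8.22e-05). PELI1, a ubiquitin ligase that acts on IRAK proteins, rose by 1.81 in MLN vs Ctrl (adjusted p = 1.01e-05) and by 1.74 in Both vs shARF (adjusted p = 1.3e-05). IKBKG, the regulatory subunit of the IKK complex, rose by 1.21 in MLN vs Ctrl (adjusted p = 0.000146) and by 1.04 in Both vs shARF (adjusted p = 2.74e-05). IRAK1, the most abundant of these genes, was between 218 and 517 TPM, UBE2V1 between 139 and 257 TPM, and ECSIT between 82.4 and 133 TPM.

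Of 22 tested genes for the processing and release of IL-1 cytokines, 12 rose and 4 fell in MLN vs Ctrl, with a median log2 fold change of 0.31, against 32.2% and 29.4% of all genes and a median of 0.05. In shARF vs Ctrl 4 rose and 6 fell, in Both vs MLN 8 were lower and 0 higher, and in Both vs shARF 9 were higher and 7 lower, against 28.3% and 32.8% of all genes. Of all genes, 21.0% rose and 20.4% fell in shARF vs Ctrl, and 20.6% were lower and 11.8% higher in Both vs MLN. The DNA sensor AIM2 rose from 0.467, 0.223 and 0.529 TPM in Ctrl to 7.71, 5.46 and 6.23 TPM in MLN (log2 3.74, adjusted p = 0.000114) and rose by 2.88 in Both vs shARF (adjusted p = 0.000136). NLRC4, an inflammasome subunit, rose from 0.129, 0.124 and 0.0419 TPM in Ctrl to 2.65, 2.74 and 1.997 TPM in MLN (log2 3.71, adjusted p = 8.38e-05), and it was listed at 0 in shARF and at 1.36, 1.80 and 1.21 TPM in Both. GSDMC, a gasdermin, rose by 1.99 in MLN vs Ctrl (adjusted p = 0.000125). Among the abundant genes of the list, HAX1 rose by 0.86 in MLN vs Ctrl (adjusted p = 9.27e-05) and CAPNS1, the small subunit of the calpains, fell by 0.76 (adjusted p = 0.00121), while S100A13, which takes part in IL-1α export, was between 123 and 244 TPM.

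Genes known to be induced by IL-1 were mostly lower in shARF than in Ctrl and, in the shRNA line, mostly higher with the drug. Whether they followed IL-1 in these cells was not tested. Of 30 tested, 25 fell and 3 rose in shARF vs Ctrl (median log2 fold change −2.72), and 19 rose and 5 fell in Both vs shARF (median 1.45). Of all genes, 20.4% fell and 21.0% rose in shARF vs Ctrl (median 0.00), and 28.3% rose and 32.8% fell in Both vs shARF (median −0.04). In MLN vs Ctrl 11 rose and 16 fell (median −0.41), and in Both vs MLN 5 were higher and 16 lower (median −0.74), against 32.2% and 29.4% of all genes (median 0.05) and 11.8% and 20.6% (median −0.08). The interaction was positive for 24 and negative for 3 of them (median 2.01), and for 11.2% and 17.1% of all genes (median −0.09). A positive value is a larger rise or a smaller fall in the shRNA line, and the 24 hold both kinds. CSF3 (8.17), SAA1 (7.29) and SAA2 (6.19) fell in MLN vs Ctrl. They were at most 0.0715 TPM in shARF, with no room to fall further. CXCL8, the neutrophil chemokine IL-8, was at 926, 1085 and 983 TPM in Ctrl, 37120, 30320 and 26400 TPM in MLN, 15.1, 18.0 and 16.6 TPM in shARF, and 35971, 37384 and 37772 TPM in Both. It rose with the drug by 4.96 in PC3 cells (adjusted p = 8.38e-06) and by 11.12 in PC3-shp14ARF cells (adjusted p = 2.28e-07), as IL1A did and IL1B did not. CXCL1, a related chemokine, fell by 0.74 on the same scale in MLN vs Ctrl (adjusted p = 0.00029) and rose by 6.73 in Both vs shARF (adjusted p = 8.14e-07). MMP3, a matrix metalloproteinase, rose by 9.32 in MLN vs Ctrl (adjusted p = 4.84e-07) and by 9.80 in Both vs shARF (adjusted p = 7.05e-07).

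Other genes of this list fell in MLN vs Ctrl, as IL1B did, and a link between them and IL1B was not tested. LCN2, an iron-binding defence protein, was at 2879, 2678 and 2758 TPM in Ctrl, 73.4, 79.2 and 83.9 TPM in MLN, 6.21, 6.71 and 7.95 TPM in shARF, and 5.90, 4.85 and 5.76 TPM in Both. The log2 fold change of LCN2 was −5.14 in MLN vs Ctrl (adjusted p = 9.04e-07) and −8.63 in shARF vs Ctrl (adjusted p = 7.88e-06). SAA1, an acute-phase protein, fell in MLN vs Ctrl (log2 −6.76, adjusted p = 5.92e-06), as did CSF3, the growth factor of granulocytes (log2 −6.45, adjusted p = 1.7e-06). In Both vs shARF, where IL1B fell, LCN2 did not pass (log2 −0.33, adjusted p = 0.067). CSF3 was called higher there (limma adjusted p = 0.0226), at 0, 0 and 0.0715 TPM in shARF and 0.270, 0.616 and 0.132 TPM in Both. SAA1 did not pass (adjusted p = 0.377), listed at 0 in shARF and at 0, 0.199 and 0 TPM in Both. The levels of CSF3 and SAA1 were too low for a fold.

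**Figure D5:**
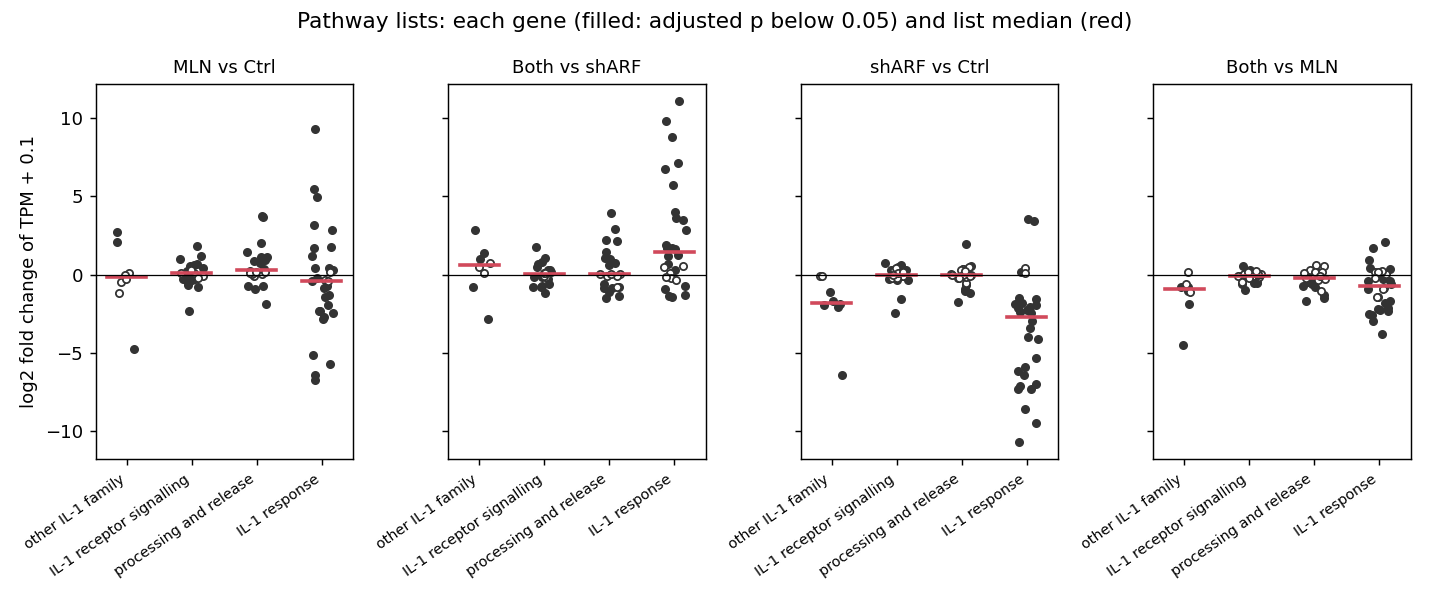
Log2 fold change on the log2(TPM + 0.1) scale of each tested gene in the 4 lists (filled for an adjusted p below 0.05) and the list median as a red line, in the 4 pairwise comparisons. The IL-1 response genes spread furthest, with a median of −2.72 in shARF vs Ctrl and 1.45 in Both vs shARF, while the medians of the signalling genes lie near 0.

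The genes most like the 3 most abundant members in pattern were found over the 12 libraries, among 9325 genes whose mean reached 10 TPM, by Pearson's r of log2(TPM + 0.1). The libraries of a condition are not independent points for such an r, so it is given as a description. The 5 genes most like IL1B were FOXA2 (r = 0.993), CDKN2A (0.987), C15orf48 (0.986), RTN4RL2 (0.986) and C3 (0.985). Those most like IL1RL1 were IL11 (0.999), TNFSF9 (0.998), RBKS (0.997), AL161431.1 (0.997) and TM4SF19 (0.996). Those most like IL18 were TIPIN (0.985), VDAC3 (0.983), PTTG1 (0.965), STMN1 (0.964) and GPCPD1 (0.964). CDKN2A was the target of the shRNA, and its means, like those of IL1B, went down from Ctrl to MLN, shARF and Both.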

How the data were processed

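PC3 and PC3-shp14ARF cells with DMSO or MLN4924 were profiled by RNA-seq, with 3 libraries per condition, grouped by the sample labels and the column names. The authors trimmed the reads, mapped them to hg38 and used CLC Genomics Workbench to quantify genes of an Ensembl annotation of GRCh38. The authors deposited TPM per gene, a unit that carries no read depth, so the DESeq2 test on counts that the authors used was replaced by limma. The strand setting is not given in the sources used here. Library numbers differ between conditions and are not explained.

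From these TPM, log2(TPM + 0.1) was fitted in R 4.3.3 by the limma package, version 3.58.1 (lmFit, eBayes with trend), over the 19932 genes whose mean reached 0.1 TPM, with Benjamini-Hochberg adjustment over all of them. Pairwise comparisons used the 6 libraries of both groups, and the interaction used all 12. The script was tested on simulated data. The ratio of IL1RN to IL1B was compared by an exact permutation test. The members and the lists were chosen with earlier results of these data known. The genes named are the members, CDKN2A, and in each of 4 lists the 3 with the highest mean TPM and the 3 with the largest change among those called in MLN vs Ctrl with a mean of at least 1 TPM. Alternatives were pseudocounts of 1 and 0.01, a filter at 1 TPM, no filter, median-of-ratios scaling, eBayes without trend, a replicate block, 1 fit of 12 libraries, and each library left out. Positions are from GENCODE release 44 and promoters from RefSeq (GRCh38.p14), which are other releases than the authors' annotation. The value of 1 marker gene is not reported here.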

Additional observations from a re-analysis of the deposited data

Results flagged for a closer look

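The response to MLN4924 differed between PC3-shp14ARF and PC3 cells for 6 members by the interaction test in limma over the 12 libraries, which was positive for 11.2% and negative for 17.1% of all genes. The difference of the log2 responses was 2.86 for IL1A, 2.38 for IL33, 1.59 for IL1B, 1.56 for IL1RL1 and 0.37 for IL1RAP, and it was −0.89 for IL18. IL1A rose in all 3 drug libraries of each line above all DMSO libraries of that line, and IL1B fell likewise in each. IL33 was at most 0.327 TPM in the shRNA line, so its value rests on levels near the pseudocount of 0.1 TPM. The value for IL1RAP lost its call in 13 of 19 alternatives. With 3 libraries per condition, single libraries were not screened as outliers, and no column of the table was left unused.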

How the results depend on the processing

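Across 50 values (10 members in 5 comparisons) and their alternatives, 639 of 705 kept their direction and their side of the threshold, 41 lost a call, 7 gained one and 18 turned direction, and those that turned had not passed the test before. A filter at a mean of 1 TPM left 5 members tested, so the members called went from 10 to 5 in MLN vs Ctrl, from 9 to 5 in shARF vs Ctrl and from 7 to 4 in Both vs MLN. The replicate block gave 6 members called in MLN vs Ctrl and 0 in shARF vs Ctrl, where it called 0 genes in all by limma (7757 at an unadjusted p below 0.05, and 8251 called without the block). It called 5708 genes against 12283 in MLN vs Ctrl and 3105 against 5645 in the interaction. The numbers did not pair the libraries (r between −0.147 and 0.063 in 10 pairs of the same number), and the block could not be fitted for Both vs MLN or Both vs shARF, which share 1 number. The log2 difference in the ratio of IL1RN to IL1B in MLN vs Ctrl, Both vs MLN and Both vs shARF was 2.67, 5.24 and 1.33 at a pseudocount of 1 and 1.23, 3.49 and −0.61 at 0.01, and it was 6.58 in shARF vs Ctrl at 1. At 0.01 the interaction was −0.26 for IL1RN, −1.68 for IL36G and 0.21 for IL1R1, which had been 0.61, 0.01 and −0.10. Leaving out each library gave IL1R2 between −0.56 and 0.11 in shARF vs Ctrl and between −0.15 and 0.21 in Both vs MLN, and IL1RAP between −0.0588 and 0.0867 in Both vs MLN. In the interaction it gave IL36G between −0.46 and 0.40, IL1R1 between −0.31 and 0.0306 and IL1R2 between −0.0618 and 0.61. The cause of these shifts was not tested beyond the number of genes or libraries left. Median-of-ratios scaling shifted the median of all genes by at most 0.085 on the log2 scale. Members below 1 TPM, such as IL1RN and, without the drug, IL1R2, are the most limited, since the depth is unknown.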

Other observations

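The caspase that cleaves pro-IL-1β and pro-IL-18 and its best-known sensor were looked up after the other values were seen. CASP1 was at 1.86, 2.14 and 2.71 TPM in Ctrl, 2.39, 2.20 and 2.08 TPM in MLN, 1.49, 1.72 and 1.33 TPM in shARF, and 0.769, 0.780 and 0.908 TPM in Both. Both lay below the other conditions, and Both vs MLN was lower (log2 −1.34, limma adjusted p = 0.00203), while MLN vs Ctrl did not pass (adjusted p = 0.992). NLRP3 was highest in shARF, at 1.82, 1.89 and 2.24 TPM, against 0.526, 0.283 and 0.511 TPM in Ctrl, a rise of 1.98 on the log2 scale (adjusted p = 0.00252) where IL1B fell. In Both it was lower than in shARF (log2 −1.396, adjusted p = 0.000468). PYCARD, another gene of the processing and release list, was at 0.0941 TPM in Ctrl library 1 and at 0 in every other library. Its mean was below the 0.1 TPM set for testing. Cleavage of the cytokines was not measured.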
